A study of Mus musculus with 12 samples.

Results

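The genes described here encode the subunits of the ionotropic and metabotropic receptors for glutamate and GABA, measured as mRNA in the cortex of mice that model Williams-Beuren syndrome. They were taken by symbol, as every protein-coding gene named Gria, Grin, Grik, Grid, Grm, Gabr or Gabbr. The deposited table held 40 of them among 17202 genes, 24 for glutamate receptors and 16 for GABA receptors. A further 7 genes of these families, Grin3b, Grm6, Gabra6, Gabre, Gabrp, Gabrr1 and Gabrr3, were not analysed here.

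Glutamate is the main excitatory transmitter of the cortex. AMPA, kainate and NMDA receptors are tetrameric cation channels that open when it binds, with AMPA receptors carrying most fast excitation and NMDA receptors admitting calcium when the membrane is already depolarised. The metabotropic receptors are coupled to G proteins, group I to phospholipase C and groups II and III to the inhibition of adenylyl cyclase, while the delta receptors act mainly as synaptic organisers. GABA, the main inhibitory transmitter, opens the pentameric chloride channels called GABA-A receptors, which most often combine alpha, beta and gamma subunits, and acts on GABA-B receptors, which are obligate pairs of Gabbr1 and Gabbr2.

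RNA was sequenced from the cortex of 12 male mice, 3 in each of 4 groups. Wild-type mice were either controls (VEH-WT) or received the combined treatment (VERCUR-WT), and CD mice were likewise controls (VEH-CD) or treated (VERCUR-CD). In CD mice 1 of the chromosomes 5 lacks the interval that runs between Gtf2i and Fkbp6 in every cell, which leaves a single copy of those genes, and the line had been crossed with Thy1-YFP mice, whose transgene marks pyramidal neurons, on a background that the labels give as C57Bl6. The treatment was curcumin, a phenol of turmeric, at 60 mg/kg/day with verapamil, a blocker of L-type calcium channels, at 10 mg/kg/day, both taken by drinking from 8 weeks of age, and the cortex was collected at 16 weeks. These doses and ages are those of the labels, and the study's methods give a lower dose of verapamil and an earlier end. The labels also give a treatment of 1 month, shorter than the time between these ages, and call the control mice untreated, whereas the methods give them vehicle. No source used here says whether the 3 libraries of a group came from separate litters, so p-values measure the spread between these mice.

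Values are normalized counts, that is, the reads counted on a gene divided by 1 factor per mouse, and rested on 40290000 to 56480000 counted reads per mouse. The correlation of log2 values between mice of a group ran from 0.986 to 0.994. All 19 genes of the deleted region that were in the table were lower in every CD mouse than in every WT mouse, with a median per mouse of 0.468 to 0.53 of the VEH-WT mean in CD mice and 0.959 to 1.04 in WT mice. The 7 cortical neuron markers summed to 0.941 to 1.08 of the VEH-WT mean in all 12 mice. The summed striatal neuron markers ran from 0.391 to 1.71 and the oligodendrocyte markers from 0.429 to 1.23, with overlapping groups, and their part in the values below was not tested. Fewer cells of a type and less RNA per cell cannot be told apart in tissue RNA.

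None of the receptor genes lies in the deleted region. Of the 5 on chromosome 5, a cluster of 4 (Gabrg1, Gabra2, Gabra4 and Gabrb1, chr5:70751047-72149037) ends 62.1 Mb from Gtf2i, and Grm3 is the other. Gabra3 and Gabrq form a pair on the X chromosome (72432681 to 72842602). Positions are those of GENCODE M21 on GRCm38. The gene bodies of Gabra4 and Gabrb1 overlap by 196 bp at their starts on opposite strands, where reads cannot be told apart unless strand was used in counting, which is not given in the sources used here.

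Promoter windows from RefSeq (GRCm38.p6) were at hand for 25 of the 40 genes, and 3 are shown because the values below turn on these genes: Gabra3, with the smallest p for genotype, Gabrg1, with the smallest p for treatment, and Gabrb2, with the highest excess in a mouse that stood apart. Each is the 250 bases before a RefSeq start, 5′ to 3′ on the strand of the gene, at chrX:72656920-72657169 (minus strand), chr5:70842618-70842867 (minus strand) and chr11:42420190-42420439 (plus strand, inside the longest GENCODE transcript). Capitals mark matches on either strand to TATAAA, the letters of the TATA box, to GGGCGG, the GC box bound by Sp factors, and to TGACG, the core of the cAMP response element.
Gabra3 promoter window: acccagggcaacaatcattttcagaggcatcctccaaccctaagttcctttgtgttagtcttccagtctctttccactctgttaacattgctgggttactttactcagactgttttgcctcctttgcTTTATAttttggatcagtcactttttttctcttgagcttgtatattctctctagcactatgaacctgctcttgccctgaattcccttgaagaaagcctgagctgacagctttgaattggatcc
Gabrg1 promoter window: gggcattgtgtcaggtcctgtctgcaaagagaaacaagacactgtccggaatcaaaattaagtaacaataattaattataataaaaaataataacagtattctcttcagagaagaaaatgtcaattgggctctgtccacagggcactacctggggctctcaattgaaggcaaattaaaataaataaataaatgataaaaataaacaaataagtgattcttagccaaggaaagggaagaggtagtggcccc
Gabrb2 promoter window: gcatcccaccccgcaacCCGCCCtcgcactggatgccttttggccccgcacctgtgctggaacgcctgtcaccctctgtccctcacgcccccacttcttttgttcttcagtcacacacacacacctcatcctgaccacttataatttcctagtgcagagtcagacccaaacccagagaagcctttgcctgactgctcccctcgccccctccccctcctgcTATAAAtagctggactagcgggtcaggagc

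The Gabra3 window held 1 TATAAA match, on the opposite strand, and no CG pair in 42.4% G and C. The Gabrg1 window had 35.6% G and C with 1 CG pair and none of the searched letters. The Gabrb2 window was richer in G and C, at 58.8% with 8 CG pairs, and held a TATAAA match and a GGGCGG match. Among all 32851 windows of this length, 12.4% held TATAAA, 32.7% GGGCGG and 17.8% TGACG on either strand. Among the 32 windows of the receptor genes the shares were 9.38%, 50% and 6.25%. No match overlapped another in the windows shown, and a match is a description of the sequence only. The median window held 61.6% G and C for the receptor genes and 52.4% over all genes.

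Levels between genes were compared per kb of exon, that is, the mean normalized count of the 12 mice divided by the summed exon length. Both GABA-B subunits led the order, with Gabbr1 at 5030 and Gabbr2 at 3678 per kb. The obligatory NMDA subunit Grin1 followed at 3177, then Grik5, a kainate subunit that needs a partner at 3017, and the AMPA subunit Gria1 at 2682. At the other end stood Gabrq at 6.98 and the rho subunit Gabrr2 at 8.06, with 24 to 57 and 6.3 to 30.4 normalized counts per mouse. Dividing by the longest coding transcript instead kept Gabbr1 first and exchanged Gabbr2 and Grin1 at ranks 2 and 3.

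Within the AMPA class the level per kb ran from Gria1 at 2682 down to Gria4 at 651. Grin1 was the highest NMDA subunit and Grin2d, a subunit of interneurons and early development, the lowest at 132. The kainate class spanned Grik5 at 3017 to Grik1 at 75.5, and the delta receptor gene Grid1 stood at 629. Of the metabotropic receptors, Grm5 of group I stood at 665, and Grm3 above Grm2 in group II (1075 and 732) and Grm7 above Grm8 in group III (319 and 91.5).

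Among the alpha subunits Gabra3 stood at 2385 per kb and Gabra2, the lowest, at 361. Gabrb2 had 656 per kb and Gabrb1, the lowest beta subunit, 422. The gamma subunits Gabrg1 and Gabrg3 stood at 131 and 121. Gabrd, which is found in extrasynaptic receptors, reached 1359 and was the only abundant one of its class. The plot of levels per kb shows how these classes were spread.

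**Figure D1:**
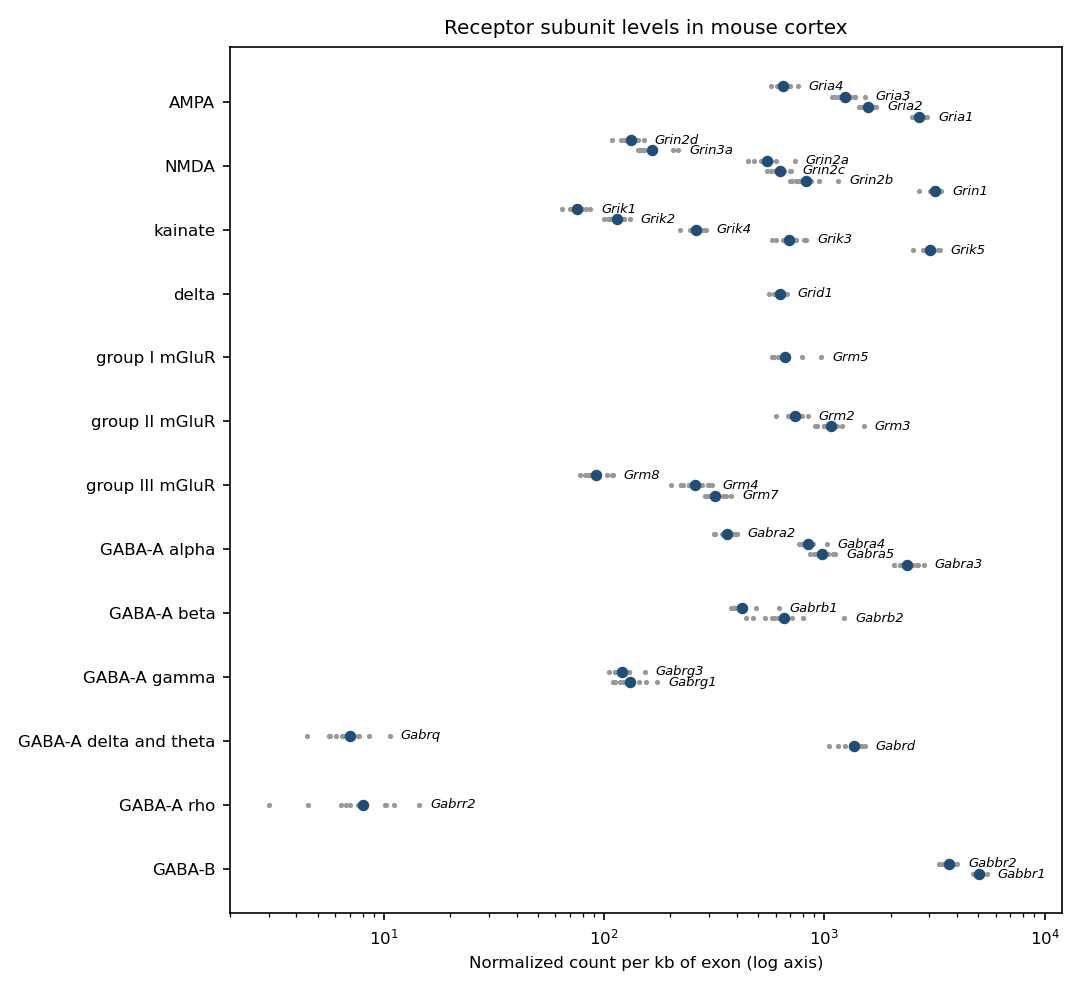
Normalized counts per kb of exon (x axis, log scale) for 35 receptor genes, by receptor class (y axis). Large points are the mean of 12 mice and small points the single mice. Gabbr1 (5030) and Gabbr2 (3678) sit at the right end and Gabrr2 (8.06) and Gabrq (6.98) at the left.

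For subunit pairs whose balance shapes receptor properties, ratios of normalized counts are given without a test. The ratio of Gria1 to Gria2, the subunit that makes AMPA receptors impermeable to calcium, was 0.668 ± 0.0288 in VEH-WT, 0.687 ± 0.0271 in VEH-CD, 0.658 ± 0.0323 in VERCUR-WT and 0.638 ± 0.0285 in VERCUR-CD (SD, n = 3). Grin2b to Grin2a, which falls during cortical maturation, was 2.003 ± 0.0551, 2.008 ± 0.17, 2.07 ± 0.0799 and 2.19 ± 0.0169 in the same order. Gabbr1 to Gabbr2 ranged from 1.52 to 1.68 over the 12 mice.

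Gabra2, an alpha subunit of receptors at synapses, had normalized counts of 2841, 2690.3 and 2629 in VEH-WT, 2434, 2998 and 2658 in VEH-CD, 3050.5, 2694 and 2420.1 in VERCUR-WT and 2768, 2992 and 2917 in VERCUR-CD. Its groups overlapped.

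Of the AMPA pair, Gria1 had normalized counts of 15317.5, 16119.6 and 15597 in VEH-WT, 16286, 17481 and 16245.5 in VEH-CD, 17701, 15099 and 15616 in VERCUR-WT and 15843, 17487 and 15690.5 in VERCUR-CD. Those of Gria2 were 22892, 25228 and 22394 in VEH-WT, 22824, 26513 and 23653 in VEH-CD, 26224, 24309.8 and 23003 in VERCUR-WT and 24162, 26798 and 25942 in VERCUR-CD. For Gria1 the VEH-CD mice lay above all VEH-WT mice, with a log2 difference of 0.09, and the other groups overlapped. For Gria2 all groups overlapped. Of the GABA-B pair, Gabbr1 had 39296, 38457 and 40751 in VEH-WT, 37865.5, 38571.5 and 37614 in VEH-CD, 39497, 39015 and 38536 in VERCUR-WT and 36918.5, 42530.5 and 39602 in VERCUR-CD, the smallest spread of all 40 genes, with a mean within-group CV of 3.14%. Gabbr2 had 24192, 25101 and 25375 in VEH-WT, 22482, 25266 and 24783 in VEH-CD, 25933, 24511 and 23042 in VERCUR-WT and 22176, 26893.5 and 25355 in VERCUR-CD. Here too the groups overlapped.

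The median within-group CV was 8.37% over the receptor genes and 9.11% over all 17111 genes tested. It was 4.25% in VEH-WT, 7.04% in VEH-CD, 7.38% in VERCUR-WT and 12.9% in VERCUR-CD, against 7.52%, 7.86%, 8.34% and 10.2% for all genes. A CV of 20% or more was reached by 11 receptor genes in VERCUR-CD and by 1 or 2 in each other group. A single mouse stood apart in that group.

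In VERCUR-CD 2, 24 of the 40 receptor genes (60%) were at the highest level of all 12 mice, where 21.5% of all genes were, and 6 (15%) were at the lowest, where 17.9% of all genes were. Its median log2 ratio to the VEH-WT mean over the receptor genes was 0.25, and that of the other mice ran from -0.07 to 0.11, the last in VERCUR-WT 1. Gabra3, Gabra4, Gabra5, Gabrb1, Gabrb2, Gabrg1, Gabrg3, both GABA-B subunits and 3 of 4 AMPA subunits were highest in this mouse. The highest excess was that of Gabrb2, at 2.001 times the median of the other 11 mice, followed by Gabrb1 at 1.59, the group I receptor Grm5 at 1.52, Grin2b at 1.48, Grm3, a receptor of astrocytes and neurons, at 1.48 and Grin3a at 1.43. Grin1, Grin2d, Grik4, Grik5, Gabrd and Gabrr2 were instead lowest in it, with Gabrd at 0.741 and Gabrr2 at 0.39 of the median of the others.

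Gabrb2 had normalized counts of 3766, 3912 and 4513 in VEH-WT, 3001.5, 3931 and 3419.9 in VEH-CD, 5077, 3668 and 4179.5 in VERCUR-WT and 2816, 7827 and 3994 in VERCUR-CD. The VERCUR-CD mice thus held both the highest and the lowest of the 12 values, and its CV in the group was 53.7%. In VERCUR-CD 2 the astrocyte markers summed to 1.28 of the VEH-WT mean, the highest of the 12 mice. The 8 genes of glutamate release, uptake and synthesis (1.26), the thalamic neuron markers (1.2) and the hippocampal granule neuron markers (1.18) were also highest in it. The interneuron markers were at 0.896 there, the lowest of the 12. The log2 ratios of this mouse were higher for genes with longer exons, with a Spearman rho of 0.479 over the 40 receptor genes and 0.396 over 17090 genes. These rhos are across genes, which are not replicates, and VERCUR-WT 1 had a rho of 0.473 over the receptor genes. Trends in the opposite direction were found in control and in treated mice. Over the receptor genes the rho was -0.61 in VEH-CD 3, -0.388 in VEH-CD 1 and -0.253 in VERCUR-CD 1. Over all genes these mice had -0.338, -0.297 and -0.2895, and VERCUR-WT 2 and 3 had -0.144 and -0.136. VEH-CD 2 had positive rhos, 0.158 over the receptor genes and 0.139 over all genes. The part of these measures in the receptor values was not tested, and the values that lean on VERCUR-CD 2 are given with and without it.

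**Figure D2:**
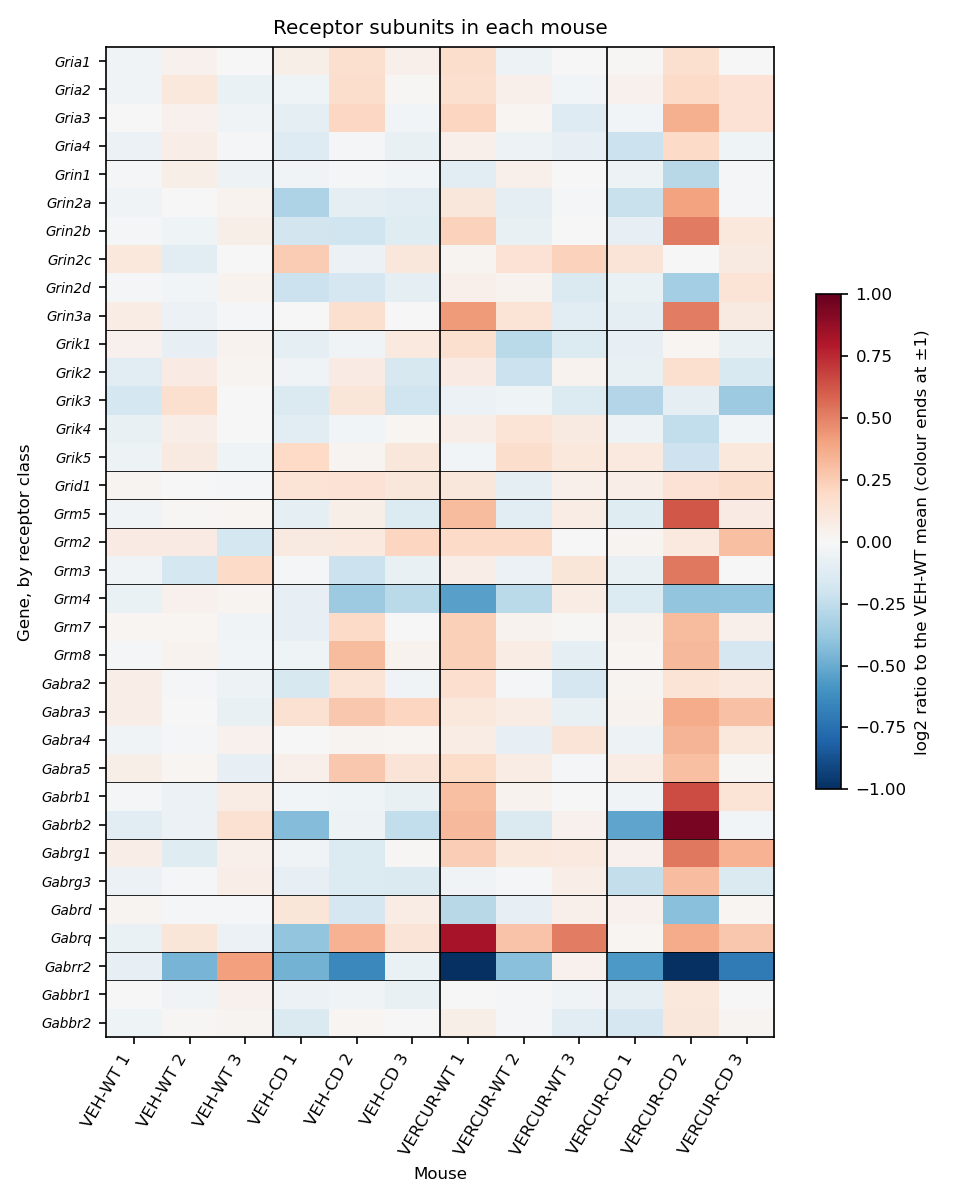
The log2 ratio of 35 receptor genes (rows, by class) to the VEH-WT mean of the gene in each of the 12 mice (columns), with red above and blue below that mean and colours ending at ±1. The column of VERCUR-CD 2 is the reddest, with 20 of these 35 genes at their highest level.

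The comparison of VEH-CD with VEH-WT asks what the deletion changes in the cortex of control mice. A gene was called when its adjusted p was under 0.05 and its level more than 25% higher or lower. None of the 40 receptor genes was called by limma, and 0.257% of all genes tested were. An unadjusted p under 0.05 was reached by 2 of the 40, where 11.8% of all genes reached it. Both were higher in VEH-CD: the alpha subunit Gabra3 and the delta receptor gene Grid1. The median log2 difference over the 40 was -0.02, with 17 above and 23 below 0, and that over all genes was -0.00276. For 28 of the 40 the 95% interval of the difference stayed within 25% in either direction, as it did for 48.95% of all genes. All 3 VEH-CD values were above all 3 VEH-WT values for 4 of the 40 genes and below them for 6. The share of all genes separated in this way is not given here. Separations of 3 from 3 mice are therefore descriptions only, in this and every other comparison.

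Gabra3, which encodes an alpha subunit of early development that persists in the adult cortex (chrX:72432681-72656848, minus strand), had normalized counts of 8988, 8611 and 8137 in VEH-WT, 9536, 10336 and 9933 in VEH-CD, 9238, 9029 and 8153 in VERCUR-WT and 8767, 11113.5 and 10485 in VERCUR-CD. All 3 VEH-CD mice were above all 3 VEH-WT mice, while the VERCUR groups overlapped. The means were 8579 ± 426 in VEH-WT and 9935 ± 399.9 in VEH-CD (SD, n = 3). The log2 difference was 0.21 with an SE of 0.08 and limma's adjusted p was 0.341, and in the treated mice it was 0.20 with an adjusted p of 0.9999, or 0.12 (adjusted p = 0.93) without VERCUR-CD 2.

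Grid1, whose product organises synapses by binding cerebellins, had normalized counts of 3634, 3548 and 3505 in VEH-WT, 3925, 3931 and 3859.5 in VEH-CD, 3852, 3333 and 3699 in VERCUR-WT and 3729, 3946 and 4019 in VERCUR-CD. The VEH-CD mice again lay above all VEH-WT mice, with a log2 difference of 0.13 (SE 0.06, adjusted p = 0.415 by limma). Grm4, a presynaptic group III receptor, had 1668, 1798 and 1778 in VEH-WT, 1649, 1357 and 1449 in VEH-CD, 1201, 1449.5 and 1844 in VERCUR-WT and 1591, 1331 and 1339.6 in VERCUR-CD. Every VEH-CD value was below every VEH-WT value, and the log2 difference was -0.24 with an adjusted p of 0.504 by limma. Gabra5, which contributes to extrasynaptic receptors, had 2822, 2748 and 2554 in VEH-WT, 2809.6, 3267 and 2965 in VEH-CD, 3080.2, 2846 and 2669 in VERCUR-WT and 2856, 3331 and 2724 in VERCUR-CD. Its VEH-CD and VEH-WT mice overlapped, and the log2 difference was 0.15.

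The comparison of VERCUR-CD with VERCUR-WT puts the same genotypes side by side under treatment, in other mice. None of the 40 genes was called, with 0.146% of all genes called, and 2 had an unadjusted p under 0.05 where 4.1% of all genes did. These were Gabra3 and, lower in VERCUR-CD, the kainate subunit Grik4. Intervals within 25% in either direction were found for 27 of the 40 and for 53.54% of all genes. The sign of the difference was the same in both genotype comparisons, which share no mouse, for 19 of the 40 genes (47.5%) and for 49.89% of all genes. Without VERCUR-CD 2 the median log2 difference over the 40 went from 0.02 to -0.04, and the genes above 0 went from 26 to 11.

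Grik4, which encodes a high-affinity kainate subunit, had normalized counts of 1485, 1643 and 1572 in VEH-WT, 1459, 1537 and 1585 in VEH-CD, 1637, 1726 and 1671 in VERCUR-WT and 1515.5, 1320.2 and 1539.8 in VERCUR-CD. Every VERCUR-CD mouse was below every VERCUR-WT mouse, with a log2 difference of -0.21 (SE 0.07, adjusted p = 0.9999 by limma), whereas the control groups overlapped, with -0.04. The lowest value was that of VERCUR-CD 2, and without it the difference was -0.14. Grik3, another kainate subunit, had 5877, 7416 and 6652 in VEH-WT, 6020.1, 7242 and 5794 in VEH-CD, 6389, 6456 and 6052 in VERCUR-WT and 5425, 6213 and 5174 in VERCUR-CD. VERCUR-CD 1 and 3 had the lowest values of the 12 mice, VERCUR-CD 2 lay among the VERCUR-WT mice, and the log2 difference was -0.17, or -0.25 without VERCUR-CD 2.

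Over both treatments, 6 CD mice were set against 6 WT mice. No receptor gene was called, against 0.321% of all genes, and in no receptor gene did the 6 CD and the 6 WT values fail to overlap, which they did for 1.05% of all genes. An unadjusted p under 0.05 was found for 3 of the 40 and for 9.64% of all genes, namely Gabra3 and Grid1 (higher) and Grik4 (lower). Gabra3 had the smallest p, with a log2 difference of 0.20 (SE 0.06, 95% interval 0.08 to 0.33) and an adjusted p of 0.26 by limma. It passed the adjusted threshold with sample quality weights (0.21, adjusted p = 0.0434) and without VERCUR-CD 1, the CD mouse with the lowest value (0.254, adjusted p = 0.046), and in no other setting tried. Over its 24 alternatives the adjusted p ran from 0.0434 to 0.562. Grid1 differed by 0.12 (adjusted p = 0.373) and Grik4 by -0.12 (adjusted p = 0.461). Without VERCUR-CD 2 the difference of Gabra3 was 0.17 (adjusted p = 0.19), and the median over the 40 genes went from 0.01 to -0.04. Without this mouse Grik4 differed by -0.09, and the number of the 40 genes with an unadjusted p under 0.05 went from 3 to 7. The share of all genes without this mouse is not given here, so the rise is not a result about the receptor genes.

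Intervals within 25% in either direction were found for 36 of the 40 genes in this comparison, against 68.14% of all genes. The intervals of Gabra3, Gabrb2, Gabrq and Gabrr2 reached further. The AMPA, NMDA and GABA-B genes all had intervals within that range.

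By class, the log2 differences of CD from WT over both treatments were small in the fast excitatory receptors. They ran from -0.03 to 0.08 in the 4 AMPA genes, from -0.11 to 0.03 in the 6 NMDA genes and from -0.12 to 0.01 in the 5 kainate genes. Grm5 of group I differed by 0.02. The metabotropic classes ran from 0.01 to 0.08 in group II and from -0.15 to 0.04 in group III. None of these passed the test. Without VERCUR-CD 2 the ranges were -0.08 to 0.04 in the AMPA, -0.14 to 0.04 in the NMDA and -0.16 to 0.06 in the kainate genes. Those of group II and group III became -0.09 to 0.09 and -0.13 to -0.01, and Grm5 turned to -0.09.

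Among the alpha subunits Gabra2 differed by 0.04 and Gabra3 by 0.20. The beta subunits Gabrb1 and Gabrb2 differed by 0.04 and -0.09 and the gamma subunits Gabrg1 and Gabrg3 by 0.05 and -0.07, and both GABA-B genes lay at -0.02 and -0.01. Gabrr2, at -0.41, had the largest absolute difference of the 40 genes and the widest interval, from -1.01 to 0.18. Without VERCUR-CD 2 Gabrb1 turned to -0.06 and Gabrg1 to -0.003, Gabrb2 was at -0.29, Gabrg3 at -0.16 and Gabrr2 at -0.24.

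**Figure D3:**
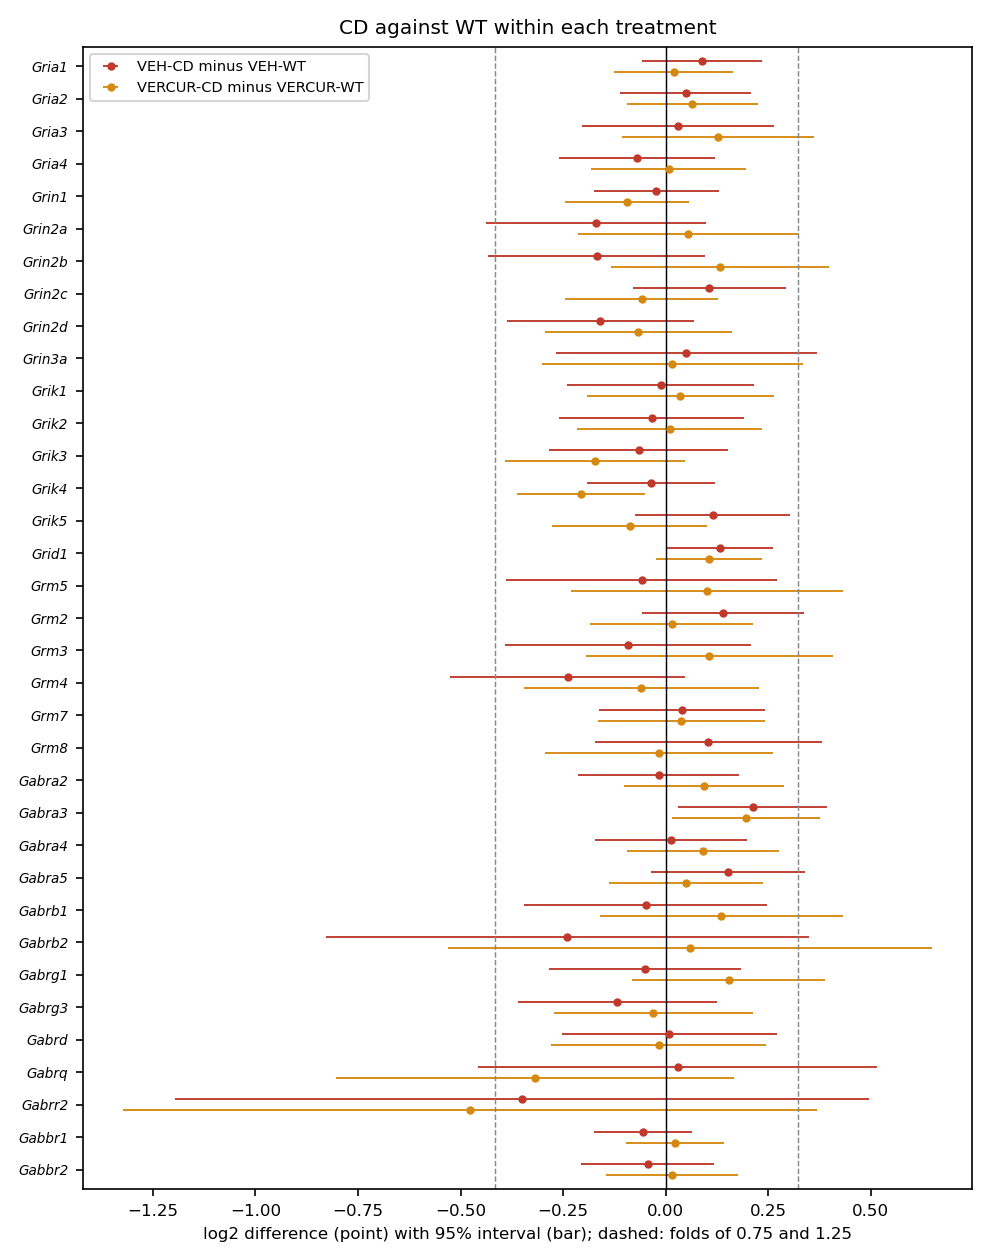
Log2 differences of CD from WT (x axis) in control mice (red) and treated mice (orange) for 35 receptor genes (y axis), with limma's 95% intervals as bars. Dashed lines mark levels 25% lower and 25% higher. Gabra3 lies to the right of 0 in both (0.21 and 0.20, the second being 0.12 without VERCUR-CD 2).

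The comparison of VERCUR-CD with VEH-CD asks what the treatment changes in CD cortex. No receptor gene was called, nor was any of the 17111 genes (0%). In this comparison 3 receptor genes had an unadjusted p under 0.05, all higher in VERCUR-CD, where 3.54% of all genes did: the gamma subunit Gabrg1, Grin2b and Gabrb1. The median log2 difference over the 40 was 0.07, with 27 above 0. Without VERCUR-CD 2 it was -0.01, with 19 above 0.

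Gabrg1, a gamma subunit also found in astrocytes (chr5:70751047-70842617, minus strand), had normalized counts of 998, 879 and 986 in VEH-WT, 933, 867 and 961 in VEH-CD, 1134, 1026 and 1022 in VERCUR-WT and 982, 1373 and 1214 in VERCUR-CD. All 3 VERCUR-CD mice were above all 3 VEH-CD mice. The VEH-CD mean was 920.4 ± 48.1 and the VERCUR-CD mean 1189.7 ± 196 (SD, n = 3), with a log2 difference of 0.36 (SE 0.11, adjusted p = 0.867 by limma). Without VERCUR-CD 2 the difference was 0.25 (SE 0.10).

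Grin2b, the NMDA subunit with slow kinetics, had 19814, 19423 and 20835 in VEH-WT, 17634, 17422 and 18389.7 in VEH-CD, 23449.7, 18977 and 20022 in VERCUR-WT and 18932, 28781 and 21562 in VERCUR-CD. Its VERCUR-CD mice were above all VEH-CD mice, which were below all VEH-WT mice, and the log2 difference of 0.35 became 0.18 without VERCUR-CD 2. Gabrb1 had 5391, 5266 and 5773 in VEH-WT, 5364, 5314 and 5193 in VEH-CD, 6747, 5619 and 5506 in VERCUR-WT and 5352, 8588 and 6022 in VERCUR-CD. VERCUR-CD 1 lay within the VEH-CD range, and the difference of 0.30 became 0.10 without VERCUR-CD 2. Grin2a, the faster NMDA subunit, had 9749, 10014 and 10226 in VEH-WT, 8055, 9402 and 9276 in VEH-CD, 10831, 9369 and 9873 in VERCUR-WT and 8581, 13202 and 9915 in VERCUR-CD. It differed by 0.23, and by 0.05 without that mouse.

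Other genes with a high excess in VERCUR-CD 2 are given in the same way. For Gabrb2 the log2 difference of 0.37 (SE 0.27) became -0.03 without the mouse, and the direction turned. Grm5 had normalized counts of 6336, 6533 and 6579 in VEH-WT, 6049, 6748 and 5905.5 in VEH-CD, 8069, 6007 and 6809 in VERCUR-WT and 5963, 9944 and 6853 in VERCUR-CD. Its difference went from 0.25 to 0.04. Grm3 had 3122, 2826.5 and 3655 in VEH-WT, 3176, 2751 and 3045 in VEH-CD, 3348, 3075 and 3488 in VERCUR-WT and 3042, 4605 and 3199.9 in VERCUR-CD, and its difference went from 0.25 to 0.06. In both genes VERCUR-CD 2 was the highest of the 12 mice and the other VERCUR-CD mice lay within the range of the remaining 9.

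**Figure D4:**
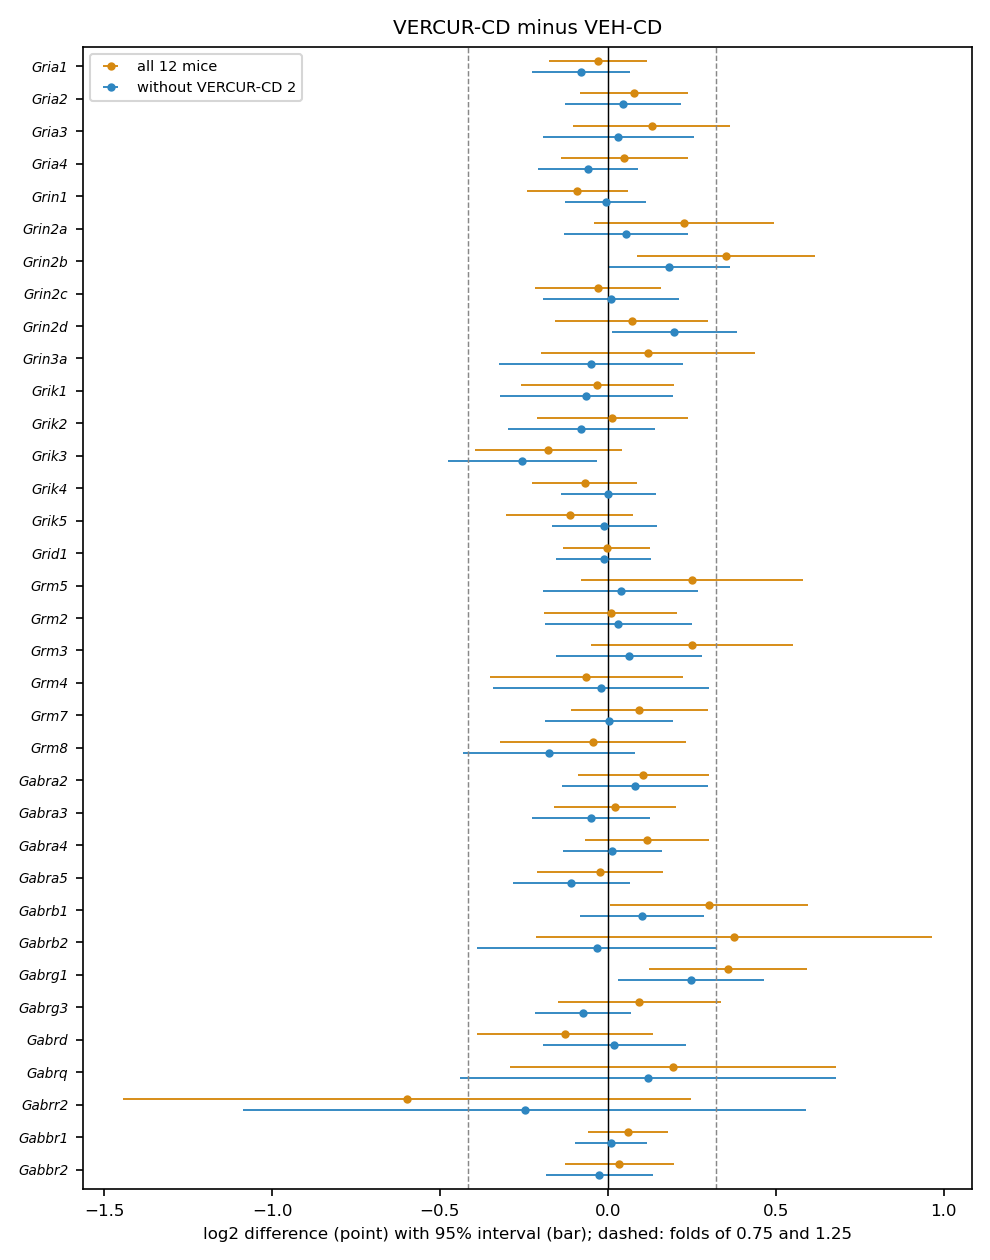
Log2 differences of VERCUR-CD from VEH-CD (x axis) for 35 receptor genes (y axis) with limma's 95% intervals, from all 12 mice (orange) and without VERCUR-CD 2 (blue). Dashed lines mark levels 25% lower and 25% higher. Gabrb2 moves from 0.37 to -0.03 and Gabrb1 from 0.30 to 0.10.

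In WT mice, VERCUR-WT was compared with VEH-WT. Again no receptor gene and no gene at all was called (0%), and 1 receptor gene had an unadjusted p under 0.05 where 5.22% of all genes did. This was Gabrq, the theta subunit, with normalized counts of 30.3, 34.6 and 30.4 in VEH-WT, 24, 40.6 and 34.7 in VEH-CD, 57, 38.9 and 45.7 in VERCUR-WT and 32.3, 41.4 and 38.5 in VERCUR-CD. All VERCUR-WT values exceeded all VEH-WT values, with a log2 difference of 0.54 (adjusted p = 0.944 by limma). Without VERCUR-WT 1, which held the highest value, the difference of Gabrq was 0.40 (unadjusted p = 0.13, adjusted p = 0.994 by limma). The median over the 40 was 0.04 and became -0.02 without VERCUR-WT 1.

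Grm4 and Grin2c were among the next genes by p in that comparison. The difference of Grm4 was -0.24, and -0.10 without VERCUR-WT 1. Grin2c, a subunit of cerebellum and astrocytes, had 3224, 2773 and 2999 in VEH-WT, 3568, 2885 and 3249.8 in VEH-CD, 3049, 3317 and 3517 in VERCUR-WT and 3282, 2998 and 3199 in VERCUR-CD. Its difference was 0.14 and became 0.19 without VERCUR-WT 1, and the groups overlapped.

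Over both genotypes, 6 treated mice were set against 6 controls. No receptor gene was called (0% of all genes), none had values of 6 and 6 mice that did not overlap (0.076% of all genes), and 3 had an unadjusted p under 0.05 (2.96% of all genes). These were Gabrg1, Grin2b and Gabrq, all higher in treated mice, with log2 differences of 0.26, 0.20 and 0.37 and an adjusted p of 0.9998 each by limma. Without VERCUR-CD 2 these were 0.20, 0.12 and 0.33. Of the 40 genes 32 were above 0 with a median of 0.05, and without VERCUR-CD 2 there were 23 with a median of 0.02. Both with and without this mouse, Gabrb1, Gabrb2, Gabrg1, Grid1, Grm5 and both group II genes were above 0. All AMPA and GABA-B genes, Gabra3, Gabra5 and Gabrg3 were also above 0 with it, but without it 2 of 4 AMPA genes were, and both GABA-B genes, Gabra3, Gabra5 and Gabrg3 were below 0. Of the 5 kainate genes, 1 was above 0 with all mice and 2 were without VERCUR-CD 2. Gabrb1 went from 0.21 with all mice to 0.11 without VERCUR-CD 2, Gabrb2 from 0.23 to 0.02, Gabra2 from 0.05 to 0.04 and Gabra4 from 0.08 to 0.03, and none passed the test.

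**Figure D5:**
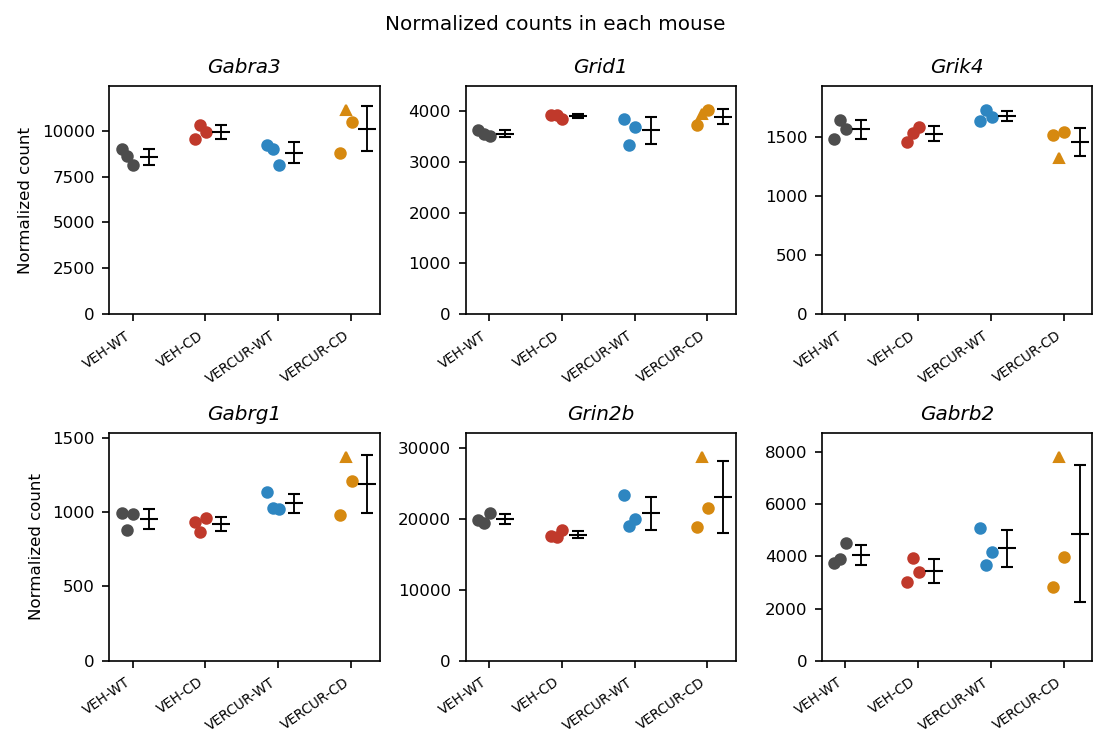
Normalized counts (y axis) of 6 receptor genes in the 3 mice of each group (coloured points, with VERCUR-CD 2 as a triangle) and the group mean with SD (black bars). In Gabrg1, Grin2b and Gabrb2 the triangle is the highest of the 12 points, and in Grik4 it is the lowest.

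VERCUR-CD was also set against VEH-WT, the comparison that asks how far treated CD cortex stands from control wild type. No receptor gene was called, against 0.199% of all genes. An unadjusted p under 0.05 was found for 5 of the 40 genes and for 8.68% of all genes. Gabrg1 (0.31) and Gabra3 (0.23) were higher, and Gabrr2 (-0.95), Grik3 (-0.24) and Grm4 (-0.30) lower, with limma's adjusted p from 0.461 to 0.561. Without VERCUR-CD 2 an unadjusted p under 0.05 was found for 2 of the 40, and the share of all genes is not given here. Gabrg1 was then at 0.20, Gabra3 at 0.16, Grik3 at -0.32 and Grm4 at -0.26. The median over the 40 genes then went from 0.08 to -0.01, and 20 of them, in place of 28, were above 0. The rho subunit Gabrr2, best known from the retina, had normalized counts of 21.3, 16.2 and 30.4 in VEH-WT, 16, 14.1 and 21.6 in VEH-CD, 9.5, 16.7 and 23.3 in VERCUR-WT and 14.8, 6.3 and 13.5 in VERCUR-CD. All VERCUR-CD values were below all VEH-WT values, the lowest being that of VERCUR-CD 2, and the difference without this mouse was -0.60. This comparison shares its VEH-WT mice with that of VEH-CD, in which Gabra3 differed by 0.21 and Grik3 by -0.07.

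The interaction asks whether the treatment acted differently in the 2 genotypes. No receptor gene passed an adjusted p of 0.05 (0% of all genes), and none had an unadjusted p under 0.05 where 6.05% of all genes did. Grin2b had the smallest p, with a log2 interaction of 0.30 (95% interval -0.07 to 0.68), which was 0.13 without VERCUR-CD 2. Next were Grik4 at -0.17, Grik5 at -0.20 and Grin2c at -0.17, which became -0.10, -0.10 and -0.13 without this mouse. Grik5 had normalized counts of 14493, 16003 and 14578 in VEH-WT, 17250.3, 15277 and 16274 in VEH-CD, 14778, 17000.3 and 16169 in VERCUR-WT and 16114, 13019 and 16132 in VERCUR-CD, with VERCUR-CD 2 the lowest of the 12. For 28 of the 40 genes the interval reached beyond 25% in at least 1 direction, and a difference of this size between genotypes in the response is not excluded for them. Intervals within that range were found for 12 of the 40 and for 29.8% of all genes.

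The proteins that traffic and anchor these receptors, and those that release, take up and make the transmitters, were described from 4 lists of 38 genes in all, and none was called in any comparison. In VEH-CD against VEH-WT 5 of the 38 had an unadjusted p under 0.05, all lower, against 11.8% of all genes, and 25 of the 38 were below 0. Gad1, which makes most of the GABA of the cortex, had 16183, 15179 and 16987.5 normalized counts in VEH-WT, and 14285, 13704 and 14168 in VEH-CD. It stood at 13881.5, 12924 and 14438 in VERCUR-WT and at 13880.4, 14843 and 14108 in VERCUR-CD. All 9 other mice were below the 3 VEH-WT mice, with a log2 difference of -0.20 for VEH-CD (SE 0.06, adjusted p = 0.221 by limma) and of -0.23 for VERCUR-WT (adjusted p = 0.867). The interneuron markers summed to 0.983 to 1.03 of the VEH-WT mean in VEH-WT and to 0.904 to 1 in VEH-CD, and their part in the Gad1 values was not tested.

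Slc17a6, the vesicular glutamate transporter of thalamic axons and some cortical cells, had 529, 551 and 582 normalized counts in VEH-WT and 423, 506 and 468 in VEH-CD. It had 457, 445.5 and 459.7 in VERCUR-WT and 462, 558 and 481 in VERCUR-CD. The VEH-CD mice were all lower than the VEH-WT mice, with a log2 difference of -0.25 (adjusted p = 0.317 by limma), and so were the VERCUR-WT mice, with -0.29 (adjusted p = 0.944). The sum of the thalamic neuron markers was also lower in both groups. It was 0.831 to 0.882 of the VEH-WT mean in VEH-CD and 0.89 to 0.939 in VERCUR-WT, against 0.966 to 1.06 in VEH-WT. The median log2 difference of the 5 markers from VEH-WT was -0.15 in VEH-CD (-0.30 to 0.04). In VERCUR-WT it was -0.01 (-0.20 to 0.003), so the markers as a set were not lower there. In VERCUR-CD the sum ran from 0.875 to 1.2, and the part of these markers was not tested. In VERCUR-CD against VEH-CD, Kctd16, an auxiliary subunit of GABA-B receptors, had the smallest p of the lists, at 0.50 (adjusted p = 0.867 by limma). It was highest of the 12 mice in VERCUR-CD 2, and without this mouse the difference was 0.20. Over both genotypes, the astrocytic glutamate transporter Slc1a3 differed by 0.16 in treated mice (adjusted p = 0.9998), or 0.12 without VERCUR-CD 2, and Gad1 differed by -0.10. Over both treatments, the GABA-making enzyme Gad2 differed by -0.15 between CD and WT (adjusted p = 0.517 by limma). The neuronal glutamate transporter Slc1a1 differed by -0.11. Without VERCUR-CD 2, the highest CD mouse for both genes, these were -0.19 and -0.15 (adjusted p = 0.183 and 0.198 by limma).

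For VERCUR-CD against VERCUR-WT, Cacng8, an auxiliary AMPA subunit, was among the 2 list genes of smallest p, at -0.11. For VERCUR-CD against VEH-WT the smallest p values of the lists were those of Gad1 at -0.17 and the vesicular GABA transporter Slc32a1 at -0.25, or -0.20 and -0.18 without VERCUR-CD 2. For the interaction, Gad1 was at 0.25 and Slc17a6 at 0.39 (0.22 and 0.31 without VERCUR-CD 2), both with an adjusted p of 0.816 by limma. The immediate early genes, which neurons transcribe when active, summed to 0.746 to 1.27 of the VEH-WT mean in VEH-WT, to 0.21 to 0.501 in VEH-CD, to 0.37 to 0.706 in VERCUR-WT and to 0.383 to 0.64 in VERCUR-CD. All 9 other mice were thus below the 3 VEH-WT mice, and the part of this difference in the receptor values was not tested.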

How the data were processed

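Cortical RNA of 12 mice was sequenced as paired-end reads. STAR 2.5.3a was used by the authors for alignment to GRCm38, and what they deposited were normalized counts of each gene in every mouse, written with decimal commas. The counting program, annotation and normalization are not given in the sources used here. Low values of all 12 mice were whole multiples (within 0.1) of 1 step per mouse, from which the number of reads counted was estimated. Other deposited tables, which hold the expression of selected genes relative to VEH-WT, were not used.

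Values were transformed as log2(normalized count + 1) and fitted in limma 3.58.1 (R 4.3.3) over the 17111 genes with a mean of at least 10, which included all 40 receptor genes. Fold changes are on this scale, which understates those of low genes. The 12 mice entered one fit of 4 group means with an intensity trend, and two-sided p values received a Benjamini-Hochberg adjustment across all tested genes. The script was tested on simulated data. Exact permutation tests were not used, since 3 mice against 3 allow none past the threshold. Exon lengths came from GENCODE M21, which held 17181 of the genes.

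Genes with values in every mouse are the 4 of smallest p in each comparison and 4 subunit pairs, from the list genes the 2 of smallest p are named, and Gabrb2, Grm5 and Grm3 were added after their values were seen. Some genes that these rules name are not reported here, and the counts and medians over the 40 genes include them. Gene members and lists were chosen with earlier results of these data known. The alternatives were other pseudocounts, filters, scalings, weights and fits, and leaving out each mouse.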

Additional observations from a re-analysis of the deposited data

How the results depend on the processing

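Over 25 alternatives the number of receptor genes called was 0 in all 8 comparisons. None of the 32 differences of smallest p, 4 per comparison, changed direction. They were picked for a small p in these same data, so their steady direction does not extend to the other genes. Gabrb2 turned from 0.37 to -0.03 for VERCUR-CD against VEH-CD without VERCUR-CD 2. The median log2 difference of the receptor genes moved by more than 1 SD between mice in 2 comparisons. For VEH-CD against VEH-WT it was 0.0431, from -0.0212, with the trend of log2 ratios on exon length removed. For VERCUR-WT against VEH-WT it was -0.0175, from 0.0387, without VERCUR-WT 1 and VERCUR-CD 2, and leaving out 1 mouse at a time gave -0.0175 (without VERCUR-WT 1) to 0.0758. These last 2 alternatives, the length trend and the pair of mice, were chosen after seeing the data, and the cause was not tested. The SD between mice includes VERCUR-CD 2, so larger moves in comparisons with VERCUR-CD could stay within it. Without this mouse the median went from 0.083 to -0.005 for VERCUR-CD against VEH-WT, and from 0.073 to -0.009 for VERCUR-CD against VEH-CD. The number of receptor genes with an unadjusted p under 0.05 moved by over 1.5 times in 60 refits. Residuals of same-numbered mice correlated from -0.347 to 0.267, with 4 of 18 pairs above 0.1. Between different numbers 9 of 36 pairs were above 0.1, and the highest correlation, 0.325, was among them. The residuals thus gave no sign of pairing by number, which this check cannot exclude. With the replicate block 0 receptor genes were called and the median for VEH-CD against VEH-WT was -0.0212. The planned count models on whole reads recovered from the values were not run. Gabrq and Gabrr2 fell out under a mean of at least 50, and 27 genes were left with a CV under 20% in every group. Depth limits precision most for Gabrq and Gabrr2, with means of 37.4 and 17.0 normalized counts.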
